A study of Mus musculus with 35 samples.

Results

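H3K4me3 and H3K27Ac were compared in the retina of newborn mice. ChIP-Seq of wild-type retinae at postnatal day 0 (P0) gave 2 libraries for H3K4me3 (antibody label H3K4me3-AB2) and 2 for H3K27Ac (antibody label H3K27Ac-AB2), and the authors deposited the peaks that were called in each library alone. All peaks of these 4 lists were members, 89734 of the 527837 peaks in the 18 lists of Brg1, H3K4me3 and H3K27Ac in the series. Each peak was classed by whether it shared at least 1 bp with a peak of the other mark in both replicates, in 1 replicate or in no replicate of that mark. No allele or agent was given to these animals, their sex is not stated in the labels, and no label says which animals gave which library, so that a p-value measures the spread between these libraries only. Brg1-FLAG peaks (1 library, P0 retina of knock-in animals whose own Brg1 carries the FLAG epitope), H3K27me3 islands (2 wild-type P0 libraries, antibody AB1) and the wild-type P14 and P21 lists of both marks served as independent readouts. Whole retina was used, which at birth mixes dividing progenitors with ganglion, amacrine, horizontal, cone and early rod cells, and a weaker peak cannot be told apart from a mark that fewer cells carry.

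H3K4me3 is the trimethylated form of lysine 4 of histone H3 and lies on nucleosomes around transcription start sites, whether or not the gene is being transcribed. H3K27Ac, the acetylated form of lysine 27, is placed by the acetyltransferases p300 and CBP at active promoters and active enhancers. Lysine 27 can instead be trimethylated by the Polycomb complex PRC2, and a lysine cannot carry both groups at once. Promoters with both H3K4me3 and H3K27me3 are called bivalent and are common at developmental regulators in progenitor cells, whereas H3K27Ac without H3K4me3 is a usual sign of an enhancer away from a promoter. Brg1 is the ATPase of the BAF chromatin remodelling complex. The positions below are in mm9, the build in the submitters' processing notes, and no gene is named for them because the gene tables at hand were of another build.

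The H3K4me3 peaks were longer and higher than the H3K27Ac peaks in every library. The median length was 1264 bp and 1390 bp in H3K4me3 replicates 1 and 2, and 446 bp and 540.5 bp in H3K27Ac replicates 1 and 2. The mean of the medians was 1327 ± 89.1 bp against 493 ± 66.8 bp (SD, n = 2 libraries each), which is 2.69 times as long. The fold enrichment at the summit, the ratio of the signal to the local background as the peak caller gives it, had a median of 24.2 and 25.9 for H3K4me3, against 6.59 and 5.16 for H3K27Ac. The groups did not overlap in either measure, and the exact permutation test over libraries (two-sided) gave p = 0.333, the smallest p that 2 libraries against 2 allow. A difference in fold enrichment between 2 antibodies cannot be told apart from a difference in how well they enrich. H3K4me3 peaks of at least 2000 bp made up 19.6% and 24.99% of their lists, against 0.739% and 2.91% for H3K27Ac. H3K27Ac was also more broken up, since 21.1% and 20.8% of its neighbouring peaks were less than 500 bp apart, against 9.03% and 5.38% for H3K4me3.

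The other mark was present in both replicates at 11997 of the 21181 H3K4me3 peaks of replicate 1 (56.6%, Wilson 95% interval 56.0 to 57.3%) and at 11779 of the 21661 peaks of replicate 2 (54.4%, interval 53.7 to 55.0%). H3K27Ac in neither replicate was seen at 5790 peaks of replicate 1 (27.3%) and at 6367 peaks of replicate 2 (29.4%). Of the H3K27Ac peaks, 15141 of 17588 in replicate 1 (86.1%, interval 85.6 to 86.6%) and 17870 of 29304 in replicate 2 (61.0%, interval 60.4 to 61.5%) overlapped H3K4me3 in both replicates. No H3K4me3 peak was found at 2156 (12.3%) and 10621 (36.2%) of them. The intervals cover counting error only. The mean share with the other mark was 55.5 ± 1.60% for H3K4me3 and 73.5 ± 17.8% for H3K27Ac (SD, n = 2), a difference of -18.0 percentage points that was close to the spread between the H3K27Ac replicates (exact permutation test, two-sided, p = 0.333).

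The H3K27Ac replicate decided the direction of that difference. With H3K27Ac replicate 1 left out, 71.2% of H3K4me3 peaks and 61.0% of H3K27Ac peaks had the other mark, and with replicate 2 left out the values were 55.9% and 86.1%. Peaks of H3K27Ac replicate 2 without H3K4me3 were rarely repeated, since 14.5% of them overlapped a replicate 1 peak, against 72.7% of those with H3K4me3 in both replicates. In the opposite direction 91.9% of the replicate 1 peaks without H3K4me3 were present in replicate 2. With the strongest 17588 peaks of each list, 84.4% and 78.4% of the H3K27Ac peaks and 64.5% and 63.1% of the H3K4me3 peaks had the other mark in both replicates.

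**Figure D1:**
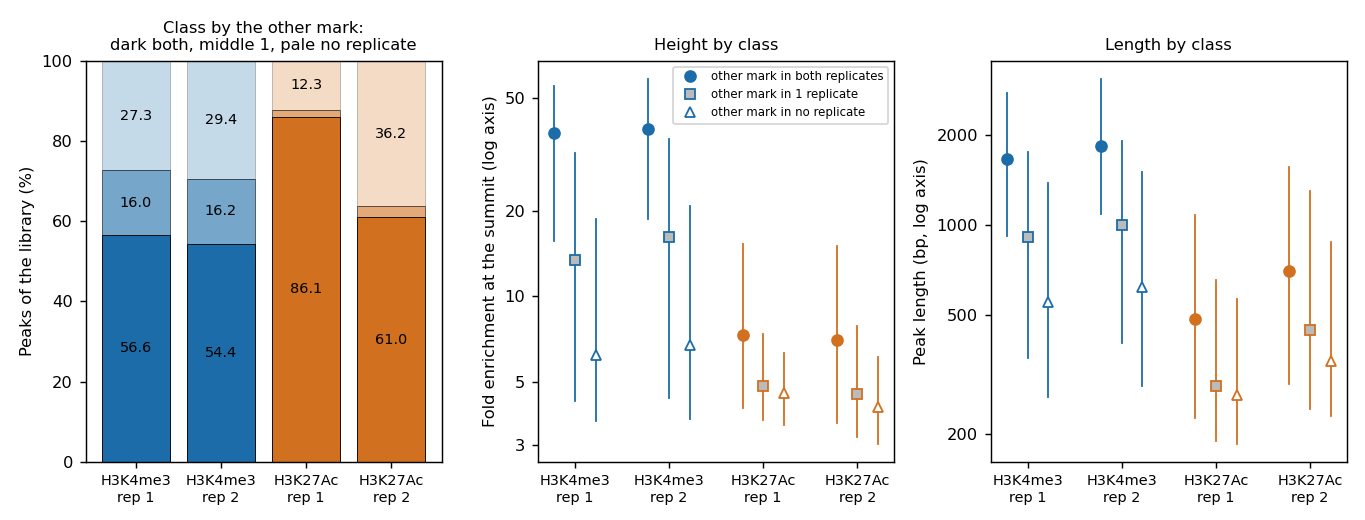
Peak classes, heights and lengths in the 4 P0 libraries. The left panel gives the share of each library's peaks (%) with the other mark in both, 1 or no replicate, and the other panels give the fold enrichment at the summit and the peak length in bp (log axes) with the median as a symbol and the 10th to 90th percentile as a line. Peaks with the other mark in both replicates were the highest and longest class in all 4 libraries, with median heights of 37.6, 38.9, 7.29 and 7.03.

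Height set the classes apart for both marks. H3K4me3 peaks with H3K27Ac in both replicates had a median fold enrichment of 37.6 in replicate 1 and 38.9 in replicate 2, those with H3K27Ac in 1 replicate 13.4 and 16.2, and those without it 6.22 and 6.73. Their median lengths fell in the same order, with 1654 bp, 914 bp and 553 bp in replicate 1 and 1839 bp, 1000 bp and 619 bp in replicate 2. The order was the same in both H3K4me3 libraries, although 2 libraries cannot give a p below 0.50 in an exact sign-flip test. H3K27Ac peaks with and without H3K4me3 lay closer together. Their median fold enrichment was 7.29 against 4.57 in replicate 1 and 7.03 against 4.08 in replicate 2, and their median length was 485 bp against 270.5 bp and 702.5 bp against 350 bp.

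The peaks of each library were then divided into 10 bins of equal size by fold enrichment. Among H3K4me3 peaks, H3K27Ac in both replicates rose from 7.22% in the lowest bin to 99.7% in the highest in replicate 1, and from 8.12% to 97.9% in replicate 2. The steepest part lay in the middle, from 29.9% in bin 4 to 74.5% in bin 6 of replicate 1. Of the 2101 H3K4me3 peaks in the highest bin of replicate 1, 1 had no H3K27Ac peak. The share of H3K27Ac peaks with H3K4me3 in both replicates began higher, at 71.6% in the lowest bin of replicate 1 and 37.1% in that of replicate 2, and reached 100% and 99.3% in the highest. A missing weak peak and an absent mark cannot be told apart in these lists, because each library lists only peaks past its own threshold and its number of reads is not given in the sources used here.

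H3K27me3 lay over a majority of the H3K4me3 peaks that lacked H3K27Ac. An island in both H3K27me3 libraries overlapped 53.5% of these peaks in H3K4me3 replicate 1 and 50.8% in replicate 2. Where H3K27Ac was present in both replicates the share was 14% in each, and where it was present in 1 replicate it was 40.2% and 37.7%. The mean difference between the classes without and with H3K27Ac was 38.2 percentage points. It was between 32.8 and 39.3 points when the summit itself had to lie inside an island, when each H3K27me3 library was used alone and when each H3K27Ac library was left out.

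The difference was also present among peaks of the same height. In bin 5 of H3K4me3 replicate 1, with a median fold enrichment of 20.5, H3K27me3 overlapped 81.4% of the 452 peaks without H3K27Ac, 55.9% of the 581 peaks with it in 1 replicate and 22.4% of the 1089 peaks with it in both. In bin 5 of replicate 2 the shares were 74.9%, 53.2% and 23.4%. In the lowest bin, where peaks were short, they were 40.0% and 3.92% in replicate 1 for peaks without and with H3K27Ac, and 37.1% and 0.568% in replicate 2. The 3 classes kept their order in every bin of both libraries with at least 20 peaks per class. Height alone gave no steady trend, since H3K27me3 over all H3K4me3 peaks of replicate 1 went from 31.7% in bin 1 to 46.0% in bin 4 and 4.28% in bin 10.

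**Figure D2:**
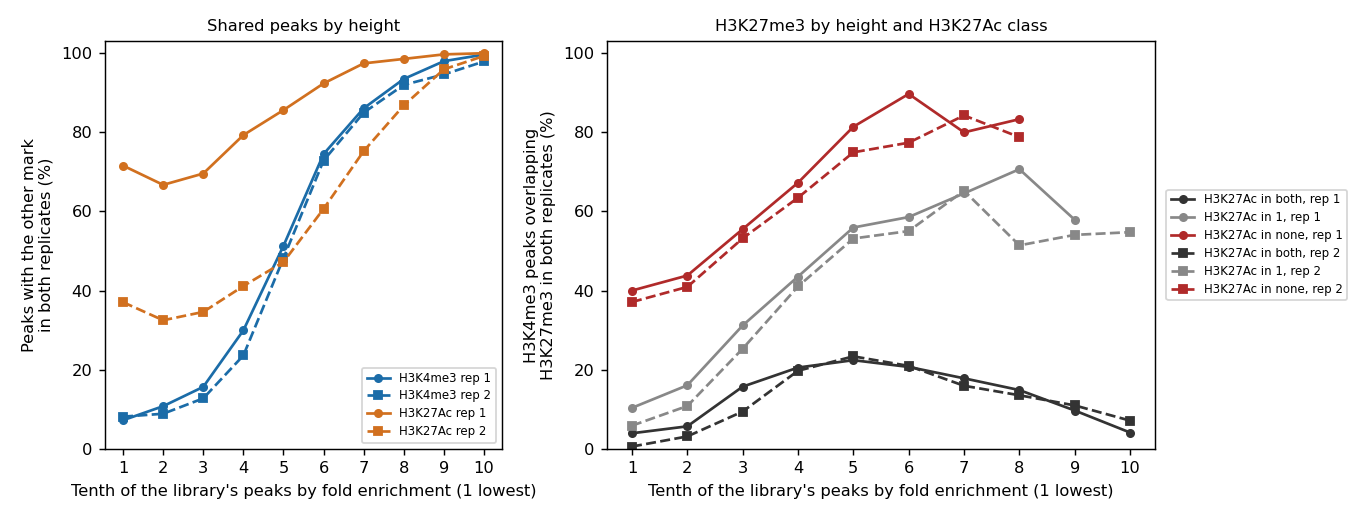
Shared peaks and H3K27me3 by height. The left panel gives the share of peaks (%) with the other mark in both replicates in 10 equal bins of fold enrichment for each P0 library, and the right panel gives the share of H3K4me3 peaks (%) overlapping H3K27me3 in both libraries, by H3K27Ac class (classes under 20 peaks in a bin are not drawn). In bin 5 of replicate 1 the shares were 81.4% without H3K27Ac, 55.9% with it in 1 replicate and 22.4% with it in both.

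H3K27Ac peaks away from H3K4me3 were almost free of H3K27me3. An island in both libraries overlapped 0.603% of these peaks in H3K27Ac replicate 1 and 0.791% in replicate 2, whereas it overlapped 12.2% and 17.9% of the H3K27Ac peaks with H3K4me3 in both replicates. Most of the overlap in the latter class was at weak acetylation. In the lowest height bin 30.1% of replicate 1 and 48.6% of replicate 2 peaks with H3K4me3 lay in H3K27me3, against 1.94% and 2.96% in the highest bin. Weak H3K27Ac peaks without H3K4me3 did not share this, with 1.04% and 1.60% in the lowest bin.

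The stretch around the summits showed how the called peaks were nested. Around H3K4me3 replicate 1 summits with H3K27Ac in both replicates, the summit base itself was inside an H3K27Ac peak at 92.9% (H3K27Ac replicate 1) and 98.5% (replicate 2) of 11997 summits. At 500 bp to the right of the summit, H3K27Ac covered 24.9% and 45.2%, while H3K4me3 still covered 84.5% and 89.9%. At 1000 bp the values were 7.67% and 15.8% for H3K27Ac and 34.6% and 41.0% for H3K4me3. As called, H3K27Ac peaks were centred within a wider block of H3K4me3, and the part of the lower H3K27Ac height in this was not tested. H3K27me3 islands changed less over this span and covered 53.7% of positions 500 bp and 49.9% of positions 2000 bp from H3K4me3 replicate 1 summits without H3K27Ac, in the first H3K27me3 library.

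**Figure D3:**
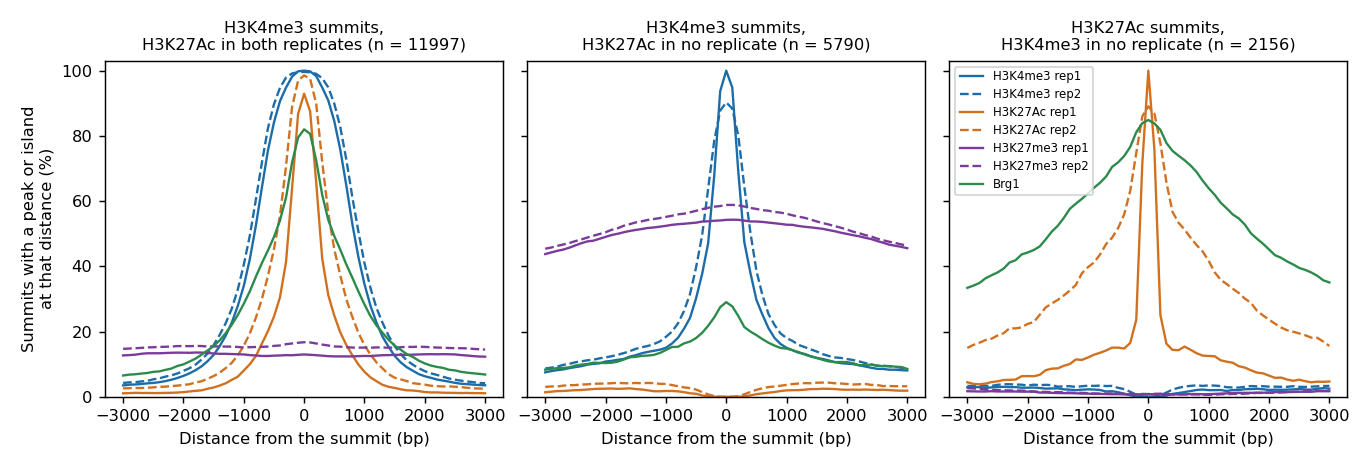
Peaks and islands around P0 summits. Each line gives the share of summits (%) with a peak or island of 1 library at each distance in bp, for H3K4me3 replicate 1 summits with H3K27Ac in both or no replicate and for H3K27Ac replicate 1 summits without H3K4me3. At 500 bp from 11997 shared summits H3K4me3 covered 84.5% and 89.9% and H3K27Ac 24.9% and 45.2%, and at the 2156 H3K27Ac summits without H3K4me3 Brg1 covered 84.9%.

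The distance between summits of the 2 marks depended on the mark it was taken from. From an H3K4me3 summit to the nearest H3K27Ac summit in an overlapping peak, the median distance was 69 bp and 68 bp for replicate 1 (to H3K27Ac replicates 1 and 2) and 55 bp and 52 bp for replicate 2. Between replicates it was 62 bp and 55 bp for H3K4me3 and 54 bp and 44 bp for H3K27Ac. Across marks, from H3K4me3 to H3K27Ac, the mean of the medians was 61 ± 8.76 bp. Within a mark it was 53.8 ± 7.41 bp, pooled over the H3K4me3 and the H3K27Ac replicates. The SD is over 4 library pairs each, which share libraries, so no test was made. The within-mark medians of H3K4me3 alone, 62 bp and 55 bp, lay inside the range of 52 to 69 bp from H3K4me3 to H3K27Ac. Taken from H3K27Ac, the median distance to the nearest H3K4me3 summit was longer, at 105 bp and 78 bp for replicate 1 (to H3K4me3 replicates 1 and 2) and 91 bp and 72 bp for replicate 2. Each of these exceeded the 54 bp and 44 bp between the H3K27Ac replicates. There was also a tail, since 20.2% of H3K27Ac replicate 1 summits lay more than 500 bp from the nearest H3K4me3 summit of replicate 1, against 10.7% from the nearest summit of H3K27Ac replicate 2.

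The tail lay mostly in H3K4me3 peaks that held several H3K27Ac peaks. Each peak has 1 listed summit, so separate H3K27Ac peaks in 1 H3K4me3 peak cannot all lie at its summit. Part of the split below is therefore given by the rule. Where the H3K4me3 peak of replicate 1 held 2 or more H3K27Ac peaks of replicate 1, 44.4% of 6110 H3K27Ac summits were more than 500 bp from its summit, against 3.80% of 9072 where it held 1. The 4 library pairs gave 44.4 to 49.1% and 2.41 to 4.29%. Of the 12090 H3K4me3 replicate 1 peaks with H3K27Ac of replicate 1, 9291 held 1 H3K27Ac peak (76.8%), 2390 held 2 (19.8%) and 409 held 3 or more (3.38%). The median H3K4me3 length was 1514 bp, 2108 bp and 3113 bp in these groups. Where there were 2, their summits were a median of 591 bp apart (quartiles 478 and 764 bp), with a gap of 189.5 bp between the peaks, and the H3K4me3 summit fell between them in 38.8% of cases. Against H3K27Ac replicate 2 the spacing was 691 bp and the H3K4me3 summit lay between in 47.1%. In the longest H3K4me3 peaks of replicate 1, of 5000 bp or more (110 peaks), 94.5% had H3K27Ac in both replicates, with a mean of 3.59 and 2.96 H3K27Ac peaks per H3K4me3 peak and a median of 44.7% and 68.0% of the length covered. Peaks shorter than 500 bp (3501) had H3K27Ac in both replicates in 8.23%.

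Overlapping peaks of the 4 libraries were merged into 32622 regions. A peak of all 4 libraries was present in 11576 (35.5%), which are called shared regions here. H3K4me3 in both replicates with no H3K27Ac was found in 4468 (13.7%), and H3K27Ac in both replicates with no H3K4me3 in 1494 (4.58%). A further 3061 had H3K4me3 in both and H3K27Ac in 1 replicate, and 9258 had H3K27Ac in 1 replicate alone. H3K27me3 in both libraries overlapped 14.2% of the shared regions, 58.4% of the H3K4me3-only regions and 0.535% of the H3K27Ac-only regions. Brg1 overlapped 89.9%, 41.7% and 93.5% of them.

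The strongest shared regions were strong in every library. At chr5:143666541-143669701 (3161 bp), which had the highest mean, the fold enrichment was 68.9 and 82.6 for H3K4me3 and 30.7 and 31.7 for H3K27Ac. At chr11:50189898-50193964 it was 64.7 and 89.9 for H3K4me3 and 28.0 and 21.5 for H3K27Ac. The replicates differed more at chr2:60046948-60049525, with 48.8 and 106 for H3K4me3 and 11.9 and 31.2 for H3K27Ac. All 8 of the regions with the highest mean overlapped Brg1 and none overlapped H3K27me3, near the shares over all shared regions, of which 89.9% overlapped Brg1 and 78.8% no H3K27me3 island. The longest shared region, chr13:83858462-83881532, spanned 23071 bp, of which H3K4me3 covered 22166 bp and 23071 bp and H3K27Ac 8688 bp and 14962 bp, and it overlapped H3K27me3 in both libraries. The next, chr17:86006795-86028273, was acetylated over most of its 21479 bp, with 15620 bp and 20851 bp of H3K27Ac, and it did not overlap H3K27me3.

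H3K4me3-only regions were weak as a class but held some tall peaks. At chr2:18508424-18510129 H3K4me3 reached 45.5 and 59.4 with no H3K27Ac peak in either replicate, and H3K27me3 was present in 1 library. At chr6:108161886-108164630 it reached 51.5 and 45.9, and at chr13:31649189-31652113 38.7 and 54.4, both with H3K27me3 in both libraries. These values exceed the medians of the shared regions, 38.3 in replicate 1 and 39.2 in replicate 2. Of the 8 H3K4me3-only regions with the highest mean, 5 overlapped H3K27me3 in both libraries and 4 overlapped Brg1. Both counts were near the shares over the whole class, 58.4% and 41.7%. Exceptions without any H3K27me3 were chr15:102993011-102994258, with H3K4me3 of 32.1 and 58.5, and chr6:97756146-97757790, with 43.2 and 43.8. The longest H3K4me3-only region, chr11:48666203-48672332, spanned 6130 bp.

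The H3K27Ac-only regions were lower than the shared ones. The highest mean was at chr10:61679539-61681821, with 14.3 and 15.2, followed by chr5:114323411-114325606, with 9.51 and 18.3. The longest, chr9:107558235-107563647, held 5413 bp of H3K27Ac in replicate 2 and 1686 bp in replicate 1, which shows how far the replicates differed in the length called. All 8 of the highest overlapped Brg1 and none overlapped H3K27me3, as did most of the class (93.5% with Brg1 and 98.9% without any H3K27me3 island). The H3K27Ac-only regions lay a median of 18616.5 bp from the nearest H3K4me3 peak (quartiles 6117.75 and 43618.2 bp), 7.16% were within 1000 bp and 21.2% were over 50000 bp away.

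Chromosome X held few of the H3K27Ac regions without H3K4me3. Of the H3K27Ac-only regions 7 of 1494 were on X (0.469%), and of the regions with H3K27Ac in 1 replicate alone 31 of 9258 (0.335%). In contrast, 343 of 11576 shared regions (2.96%) and 168 of 4468 H3K4me3-only regions (3.76%) were on X. Over all 32622 regions the share was 2.26% (738 regions). The 2 classes without H3K4me3 were also weak, with median H3K27Ac of 4.71 and 5.57 in H3K27Ac-only regions. In the 1-replicate regions it was 4.25 and 3.97, against 8.30 and 9.36 in shared regions. The part of height in the X shares was not tested. H3K27Ac-only regions made up 0.949% of all regions on X, and between 2.50% (chromosome 13) and 6.62% (chromosome 12) on the autosomes. The share on X was 0.358% against 3.11% without H3K27Ac replicate 1 and 0.371% against 2.98% without replicate 2.

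The heights of the 2 marks were next compared region by region in the 11576 shared regions, with limma on the log2 of the highest fold enrichment after each library was scaled to the same median. This asks which regions had more of 1 mark than its typical height would give. H3K4me3 was higher in 108 regions (0.933% of those tested) and H3K27Ac in 770 (6.65%), at an adjusted p below 0.05. Shared regions need a called peak in all 4 libraries, so neither mark could fall below the height needed for a call. The median over these regions was 38.3 and 39.2 for H3K4me3, with lowest peaks of 2.01 and 2.14 in the lists. For H3K27Ac it was 8.30 and 9.36, with 1.89 and 1.62, which left less room below the median. The part of this limit in the 2 counts was not tested. Without the scaling, H3K4me3 was higher in 11007 and H3K27Ac in 27, with the median difference moved from -0.11 to 2.03 on the log2 scale, so the directions given here are relative to the median of each library. On the same regions the counts were 565 and 1469 with the replicate number as a block and 1217 and 2542 with −log10 p in place of fold enrichment. Each fit without 1 library used the regions with a peak in the other 3. It gave 28 and 590 of 11746 regions without H3K4me3 replicate 1, 38 and 693 of 11604 without H3K4me3 replicate 2, 112 and 1319 of 14554 without H3K27Ac replicate 1, and 214 and 877 of 11659 without H3K27Ac replicate 2.

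Regions with relatively high H3K4me3 stood out more by weak H3K27Ac than by tall H3K4me3. Their median fold enrichment before scaling was 45.2 and 44.5 for H3K4me3 and 3.79 and 4.66 for H3K27Ac, whereas over all shared regions it was 38.3 and 39.2, and 8.30 and 9.36. At chr1:167123582-167125171 H3K4me3 stood at 47.5 and 50.4 and H3K27Ac at 2.83 and 3.38, a scaled log2 difference of 1.85 ± 0.36 (SE, limma adjusted p = 0.000413). At chr7:80519620-80521900 it stood at 42.7 and 29.2 against 3.12 and 2.27, a difference of 1.59 ± 0.37 (adjusted p = 0.00393). H3K27me3 in both libraries overlapped 54 of the 108, against 14.2% of all shared regions.

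Regions with relatively high H3K27Ac differed mainly in having weak H3K4me3. Their median was 8.01 and 11.3 for H3K4me3 and 7.02 and 8.73 for H3K27Ac. The largest difference was at chr5:115938849-115940366, where H3K4me3 was 8.05 and 10.2 and H3K27Ac was 40.4 and 28.9, a scaled log2 difference of -4.05 ± 0.37 (adjusted p = 9.13e-09). That acetylation was far above the median of the class. At chr11:101518806-101519572 the values were 5.56 and 6.44 for H3K4me3 and 16.2 and 19.9 for H3K27Ac, a difference of -3.72 ± 0.36 (adjusted p = 1.95e-08). H3K27me3 in both libraries overlapped 41 of the 770 (5.32%), and Brg1 overlapped 724 (94.0%, against 89.9% of all shared regions).

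**Figure D4:**
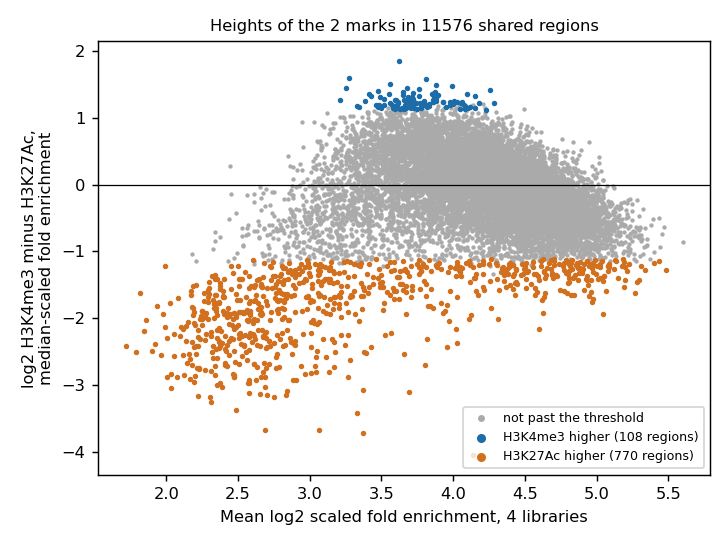
Heights of H3K4me3 and H3K27Ac in 11576 shared regions. The x axis gives the mean log2 of the median-scaled fold enrichment over the 4 libraries and the y axis the log2 difference of H3K4me3 minus H3K27Ac, with coloured points for regions past the limma threshold. Of the coloured points, 108 lie above 0 and 770 below, the largest at 1.85 and -4.05.

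Replicates of a mark resembled each other more than the marks did in 3 of 4 cross-mark pairs by Spearman's coefficient. Over the 11576 shared regions Pearson's r of the log2 heights was 0.77 between the H3K4me3 replicates and 0.68 between the H3K27Ac replicates, with Spearman's rho of 0.55 and 0.69. Between marks r was 0.38 to 0.54. The exception was H3K4me3 replicate 2 with H3K27Ac replicate 2, with rho = 0.61, above the 0.55 of the H3K4me3 replicates. These coefficients are descriptions across regions, which are not independent, and every pair of libraries shares the peak calling.

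H3K4me3 covered a longer stretch than H3K27Ac in 7416 of the 11576 shared regions (64.1% of those tested) and H3K27Ac in 36 (0.311%), by limma on the log2 covered length without scaling. The median covered length was 1712.5 bp and 1856 bp for H3K4me3 and 647 bp and 1032.5 bp for H3K27Ac. With lengths scaled to the same median in each library the counts were 365 and 188, so the direction of most calls is that of the overall difference in length. The counts also changed with the libraries used, each fit again taking the regions with a peak in the other 3. They were 204 and 8 of 11746 regions without H3K4me3 replicate 1, 152 and 7 of 11604 without H3K4me3 replicate 2, 12028 and 251 of 14554 without H3K27Ac replicate 1, and 11403 and 43 of 11659 without H3K27Ac replicate 2. The lone library left for a mark was taken to vary like the other mark.

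The largest differences in length fell in H3K27me3. At chr14:70474110-70479067 H3K4me3 covered 4759 bp and 4958 bp and H3K27Ac 181 bp and 345 bp, a log2 difference of 4.28 ± 0.39 (adjusted p = 0.00191). At chr5:32435149-32439650 the lengths were 4051 bp and 4440 bp against 189 bp and 270 bp, a difference of 4.23 ± 0.35 (adjusted p = 0.00137). All 8 regions with the largest difference toward H3K4me3 overlapped H3K27me3 in both libraries, as did 18.5% of the 7416, against 14.2% of all shared regions. In the opposite direction, H3K27Ac covered 2958 bp and 4462 bp and H3K4me3 351 bp and 665 bp of chr12:109477111-109481582, a difference of -2.91 ± 0.41 (adjusted p = 0.00501). None of the 36 regions in which H3K27Ac was longer overlapped H3K27me3 in both libraries, and all 36 were also among the 770 with relatively high H3K27Ac. Brg1 overlapped all 36, near its share of 89.9% over all shared regions and 94.0% over the 770.

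The Brg1 share differed between the classes at equal height. In bin 5 of H3K4me3 replicate 1 it was 82.3% with H3K27Ac in both replicates and 58.0% without, and in bin 5 of replicate 2 it was 84.1% and 51.3%. Among H3K27Ac peaks the order differed between the replicates in the weaker bins. In bin 5 of replicate 1, 81.7% of the peaks with H3K4me3 and 93.8% of those without overlapped Brg1, while in replicate 2 the shares were 69.8% and 68.0%. In bins 1 to 5 the share was larger without H3K4me3 in replicate 1 and larger with it in replicate 2. In bins 6 to 8 it was larger without H3K4me3 in both replicates. In bin 7 it was 86.1% with H3K4me3 and 96.9% without (32 peaks) in replicate 1, and 82.0% and 88.4% (654 peaks) in replicate 2. Brg1 was measured in 1 library of another strain, so its part has no replicate check.

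Acetylation of the shared regions was often found again at later stages, and that of the H3K27Ac-only regions seldom was. H3K27Ac in both replicates was present at P14 in 7764 of the 11576 shared regions (67.1%) and at P21 in 6422 (55.5%). In the H3K27Ac-only regions it was present in 212 (14.2%) and 213 (14.3%) of 1494. These were also weaker at P0, with median H3K27Ac of 4.71 and 5.57 against 8.30 and 9.36 in the shared regions. Their median region length was 829 bp against 1902.5 bp, the latter merged over both marks. The part of height and length in this contrast was not tested. The H3K4me3-only regions rarely had H3K27Ac later, with 168 (3.76%) at P14 and 185 (4.14%) at P21 of 4468. H3K4me3 itself was found again at P14 in 97.4% of the shared and 54.1% of the H3K4me3-only regions, and appeared in 3.68% of the H3K27Ac-only regions.

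H3K27me3 at P0 split the shared regions further. The 1647 shared regions with H3K27me3 in both libraries had median H3K27Ac of 5.47 and 6.27, against 9.10 and 10.1 in the 9126 without, while H3K4me3 was 32.6 and 34.5 against 39.4 and 40.1. At P14, 41.3% of the former and 73.0% of the latter had H3K27Ac, and at P21 29.8% and 61.5%. The part of the lower H3K27Ac height at P0 in this contrast was not tested. H3K4me3 persisted in nearly all regions of both groups, in 99.3% and 97.0% at P14. Among the H3K4me3-only regions, H3K4me3 at P14 was seen in 60.7% of the 2608 with H3K27me3 and in 43.8% of the 1492 without. The former were also taller at P0, with median H3K4me3 of 9.20 and 10.8 against 5.90 and 7.43. They were longer too, at a median of 1014.5 bp against 655.5 bp, and the part of height and length was not tested.

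**Figure D5:**
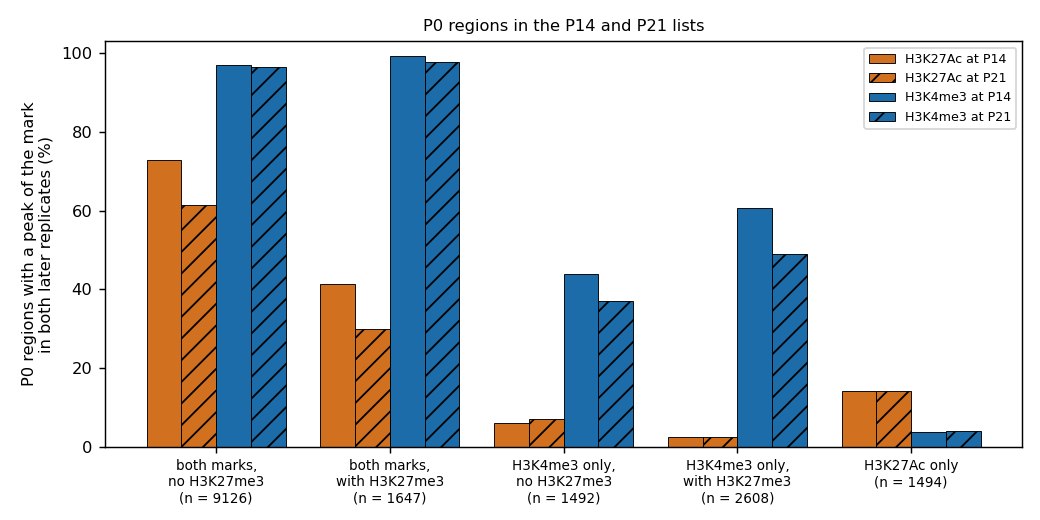
P0 regions in the P14 and P21 lists. Bars give the share of regions (%) of each P0 class with a peak of H3K27Ac or H3K4me3 in both later replicates, with shared and H3K4me3-only regions divided by H3K27me3 in both or no P0 library. H3K27Ac at P14 was found in 73.0% of shared regions without H3K27me3, in 41.3% of those with it and in 14.2% of H3K27Ac-only regions.

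The balance of the marks at P0 was set beside P14 and P21. H3K4me3 peaks without H3K27Ac in either replicate made up 27.3% and 29.4% at P0, 15.9% and 16.0% at P14, and 27.1% and 18.8% at P21. The P0 mean of 28.4% for this class was above that of P14, 15.9%, and that of P21, 23.0%, and in both cases the libraries did not overlap (exact permutation test, two-sided, p = 0.333 for each, the smallest possible). H3K4me3 peaks with H3K27Ac in both replicates were also fewer later, with means of 55.5% at P0, 48.4% at P14 and 43.3% at P21 (exact permutation test, two-sided, p = 0.333 for each), so that peaks with H3K27Ac in 1 replicate made up more of the later lists. H3K27Ac peaks without H3K4me3 had a mean share of 24.3% at P0, 46.3% at P14 and 43.3% at P21, and their libraries overlapped (p = 0.667 for each in the same exact test). H3K27Ac peaks with H3K4me3 in both replicates had a mean share of 73.5% at P0, 51.1% at P14 and 47.6% at P21. For this class the libraries of P0 and P14 overlapped (same exact test, p = 0.667). Those of P0 and P21 did not (same exact test, p = 0.333). H3K27Ac replicate 2 of P14 held 50005 peaks and that of P21 45833, against 29304 at P0. Replicate 1 held 17433 peaks at P14 and 18718 at P21, against 17588 at P0. The part of these list sizes in the differences between stages, for the H3K4me3 and the H3K27Ac classes, was not tested.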

How the data were processed

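P0 retinae were fixed in formaldehyde, sheared and immunoprecipitated. The processing notes per the labels name BWA 0.5.9-r26, Picard 1.65, SAMtools, MACS2 2.0.9, SICER 1.1 and the build mm9, without roles. The authors deposited 1 peak list per library, with the fold enrichment (a ratio) at the summit, the −log10 p-value, the −log10 q-value and the summit as a distance from the start. H3K27me3 came as islands, of which only positions were used. Read depth is not given in the sources used here, and input libraries were not analysed here.

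The peaks, comparisons, alternatives and lists were chosen with earlier results of these data known. Overlaps (at least 1 bp) were found with pandas 2.3.3 and numpy 2.4.6 under Python 3.11.15 and checked against bedtools 2.31.1 (42 ordered pairs of lists, 0 differing). Medians and shares were compared by exact permutation over libraries (scipy 1.17.1). Shared regions were fitted with limma 3.58.1 in R 4.3.3 (lmFit, eBayes, Benjamini-Hochberg, threshold 0.05), with heights scaled to the same median and lengths unscaled. The overlap rule and the limma fits were tested on simulated data. Regions were to be named by rule: the 8 with the highest mean and the 5 longest of each class, and the 8 largest differences each way past the threshold of each fit, of which the text gives the leading ones. The last peak on chromosome 1 ended at 197068264, beyond the last GRCm38 gene at 195291439, so GRCm38 annotation and sequence were not used. The planned shares of promoters and gene lists, and the check of cell type markers, were therefore not run. Alternatives were the minimum overlap, either replicate, the strongest 50% or equal numbers of peaks, joining within 500 bp, the strongest overlapping peak, no scaling, a pseudocount of 3.34 at the 5th percentile, −log10 p, scaled lengths, a replicate block and leaving out each library. Figures were drawn with matplotlib 3.10.9.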

Additional observations from a re-analysis of the deposited data

How the results depend on the processing

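Median peak length, median fold enrichment and summit distance kept their direction, or stayed within 1 SD, under all 20 alternatives tried on them. Leaving out 1 library gave differences of 770.75 to 896.75 bp in length, 18.3 to 20.1 in fold enrichment and a summit distance of 53.5 to 68.5 bp. The difference in the share with the other mark (-18.0 percentage points) kept its direction under 7 of 8 alternatives and turned to 10.2 without H3K27Ac replicate 1. Leaving out 1 library gave -30.1 to 10.2. With an overlap of at least 50% of the classed peak it was -59.2, and with either replicate enough it was -4.11.

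The region counts moved by over 1.5 times under most settings. For height, H3K4me3 was higher in 108 and H3K27Ac in 770 of the 11576 shared regions. On the same regions the counts were 11007 and 27 without scaling, 1217 and 2542 with −log10 p, and 565 and 1469 with the replicate block. A wider set of 21231 regions with a peak in at least 2 libraries gave 1097 (5.17%) and 2864 (13.5%). There a missing height was replaced by the pseudocount, so regions with 1 mark alone entered with a built-in difference. Leaving out 1 library gave 28 to 214 and 590 to 1319. For length, against 7416 and 36, the counts were 365 and 188 with lengths scaled to the same median, 8648 and 64 with the replicate block, and 152 to 12028 and 7 to 251 with 1 library left out. The cause of these moves was not tested, apart from the scaling, which removes the median difference by construction.

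The replicate numbers are shared by the marks, and no label says that a number marks a shared animal or day. The difference between replicates 1 and 2 was correlated between the marks with r = 0.34 for height and r = 0.08 for length over 11576 regions, so the block is given as an alternative and not as a pairing of samples. The H3K27me3 difference (32.8 to 39.3 points) and the chromosome X difference (-2.75 to -2.61 points) kept their direction under the 7 alternatives, which were chosen after seeing the data. Peaks under the threshold of a library are not listed, so depth limits every statement that a mark was not found.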
